A study of Homo sapiens with 6 samples.

Results

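The proteasome genes were taken as every gene whose whole symbol is PSM followed by 1 letter from A to G and a number. This rule used no measured value and found 47 of the 24551 gene symbols in the expression tables of a SPOP knockdown experiment. They encode 8 alpha ring subunits (PSMA), 7 constitutive beta ring subunits (PSMB1 to PSMB7), 4 immunoproteasome or thymus beta subunits (PSMB8 to PSMB11), 6 ATPases of the base (PSMC), 11 other subunits of the regulatory cap (PSMD), 3 cap assembly chaperones (PSMD5, PSMD9 and PSMD10), 4 activators or inhibitors (PSME and PSMF1) and 4 core assembly chaperones (PSMG). PSME2 is not among them because it was listed only in a merged row with the microRNA gene MIR7703, and the values of that row are given beside those of PSME1.

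RNA-Seq was carried out in DU145, an established prostate carcinoma cell line, and in 769-P, an established line of renal cell adenocarcinoma. Each line gave 1 library of cells transfected with a control siRNA (NC), 1 with SPOP siRNA 1 and 1 with SPOP siRNA 2, 6 libraries in all, and no further treatment is given in the labels. SPOP is the substrate adaptor of a CUL3 ubiquitin ligase, and its siRNAs were used in both lines to compare a prostate and a kidney cancer background. The 2 siRNA libraries of a line stand for its replicates, and they share a single control library. The p-values measure only the spread between the 2 siRNA libraries within each line, which may be technical. The single control libraries add nothing to that spread.

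The proteasome is the protease that degrades proteins tagged with ubiquitin, including the substrates of SPOP. Its core is a barrel of alpha and beta rings in which the beta subunits PSMB5, PSMB6 and PSMB7 cut peptide bonds, and its cap binds ubiquitin chains, removes them and feeds the unfolded protein into the barrel with ATPases. In cells exposed to interferon the catalytic subunits are replaced by PSMB8, PSMB9 and PSMB10, and the resulting immunoproteasome favours peptides that fit class I antigens. When the proteasome is inhibited, the transcription factor NRF1, encoded by NFE2L1, raises the transcripts of its subunits together.

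Values are FPKM (fragments per kilobase of a transcript, for each library set relative to all its mapped fragments), so levels can be compared between genes within a library. Comparisons between libraries depend also on how the libraries are scaled, and directions under other scalings are given below. The files hold no read counts, and the depth behind a value is unknown. The most frequent ratio of low values put the libraries between 0.68 and 1.41 times the depth of the 769-P control. SPOP itself had 16.1 FPKM in the DU145 control against 2.77 and 2.96 with the siRNAs, and 11.6 FPKM in the 769-P control against 1.53 and 1.39. Of 6 epithelial markers 5 were higher in every DU145 library than in any of 769-P, and of 9 renal markers 7 were higher in every 769-P library, with KRT19 at 384 to 462 FPKM in DU145 and at most 3.56 in 769-P, and PAX8 at 106 to 125 FPKM in 769-P and at most 1.47 in DU145. CA9, a marker of clear cell renal carcinoma, was listed at 0 in every 769-P library. NNMT, on the renal list, ran the other way, with 47.3 to 70.5 FPKM in DU145 and 6.31 to 9.76 FPKM in 769-P, and KRT5, on the epithelial list, was at most 0.254 FPKM in DU145. Of the leukocyte markers PTPRC and CD3E were at most 0.133 FPKM in every library, and CD74 had 16.4 to 23.7 FPKM in DU145. CD14, also on that list, had 1.47, 0.224 and 1.59 FPKM in DU145 with the control, siRNA 1 and siRNA 2. The DU145 control and 769-P with siRNA 2 also held low values at 287 and 237 of the 366 genes for olfactory receptors, at a mean of 0.345 and 0.227 FPKM, where the other libraries did so at 3 to 5.

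Of the 47 genes, 43 averaged 1 FPKM or more and were compared. The other 4 were PSMA8, PSMB8, PSMB9 and PSMB11. The member just inside this limit was PSME4 with a mean of 8.58 FPKM, and the one just outside was PSMB11 with 0.110 FPKM. The transcripts covered a wide range. In the DU145 control the compared genes ran from 11.4 FPKM (PSME4) to 442 FPKM (PSMB4), a 38.7-fold range, and 32 of them lay between 20 and 200 FPKM. The 769-P control ran from 9.60 FPKM (PSME4) to 338 FPKM (PSMA7), a 35.2-fold range, with 37 genes between 20 and 200. Among the subunits of the rings, base and cap alone, the DU145 control ran from PSMA5 at 16.3 to PSMB4 at 442 FPKM and the 769-P control from PSMC6 at 28.2 to PSMA7 at 338 FPKM. The mean log2 levels of the 43 genes in the 2 lines had a Pearson correlation of 0.892, which describes genes measured in the same 6 libraries and is no test.

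**Figure D1:**
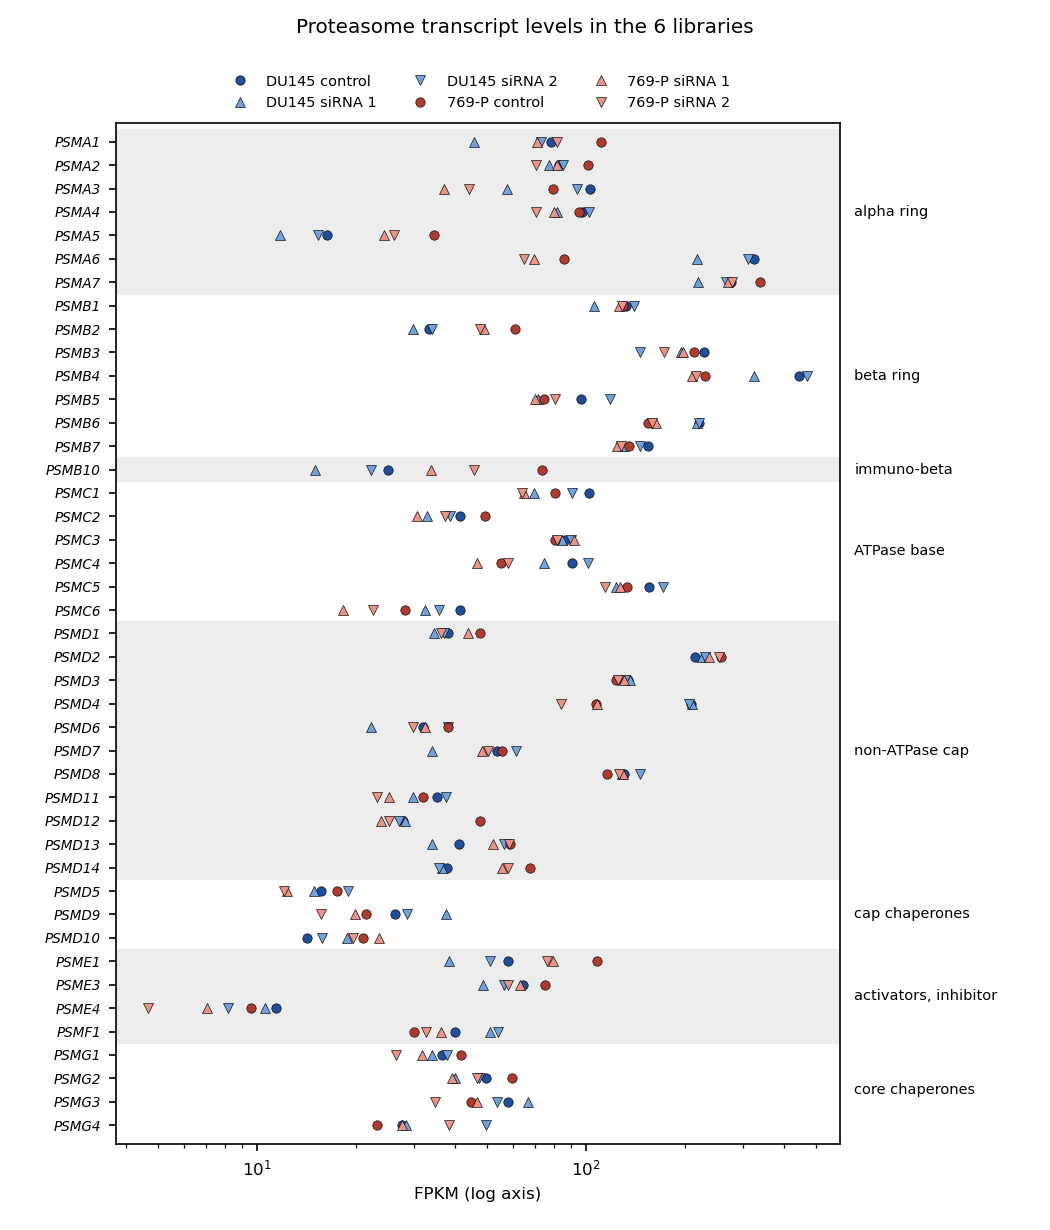
FPKM of each of the 43 compared proteasome genes on a log axis, grouped by subcomplex, with 1 point per library for the control and the 2 SPOP siRNAs of DU145 and 769-P. The alpha and beta rings reach from PSMA5 at 11.7 to 34.5 FPKM up to PSMB4 at 210 to 469 FPKM. PSMA8, PSMB8, PSMB9 and PSMB11, listed at or near 0, are not drawn.

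The alpha ring, which forms the gate of the barrel, had its highest mean over the 6 libraries at PSMA7, with 275, 219 and 266 FPKM in DU145 with the control, siRNA 1 and siRNA 2, and 338, 271 and 276 FPKM in 769-P in the same order. In DU145 the mean of PSMA6, whose values are given with the line differences, was above that of PSMA7. The lowest compared transcript of the ring was PSMA5, at 16.3, 11.7 and 15.4 FPKM in DU145 and 34.5, 24.4 and 26.1 FPKM in 769-P. PSMA8, an alpha subunit of the testis, was listed at 0 in all 6 libraries. In the constitutive beta ring PSMB4, a structural subunit, was highest, with 442, 324 and 469 FPKM in DU145 and 230.0, 210 and 216 FPKM in 769-P, and PSMB2 was lowest, with 29.8 to 34.1 FPKM in DU145 and 47.5 to 60.9 FPKM in 769-P. Among the ATPases PSMC5 was highest, at 123 to 171 FPKM in DU145 and 114 to 133 FPKM in 769-P, and PSMC6 was lowest, at 32.3 to 41.2 and 18.2 to 28.2 FPKM. In the cap PSMD2, a scaffold subunit, had the highest mean, with 214 to 230.1 FPKM in DU145 and 237 to 257 FPKM in 769-P. High and low transcripts were thus mixed within the rings, the base and the cap.

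The catalytic subunits differed in level and in how alike their libraries were. PSMB6, with the caspase-like site, had 221, 217 and 219.7 FPKM in DU145 and 155, 163 and 158 FPKM in 769-P, so the siRNA libraries were at 98.3% to 106% of their controls. PSMB7, with the trypsin-like site, had 154, 129 and 146 FPKM in DU145 and 135, 124 and 128 FPKM in 769-P. PSMB5, with the chymotrypsin-like site that bortezomib blocks, had 96.5, 71.6 and 118 FPKM in DU145 and 74.7, 70.0 and 80.6 FPKM in 769-P. In both lines its control lay between the siRNAs, with siRNA 1 lower and siRNA 2 higher. PSMB6 thus had the highest level of the 3 catalytic subunits in every library and PSMB5 the lowest.

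PSMB10 was the 1 immunoproteasome subunit listed above 1 FPKM. It had 24.9, 15.0 and 22.2 FPKM in DU145, and 73.4, 33.7 and 45.8 FPKM in 769-P. Every 769-P library was above every DU145 library. PSMB8 was listed at 0 in 5 libraries and at 0.157 FPKM in 769-P with siRNA 2. PSMB9 was listed at 0 in 4 libraries and at 0.201 and 0.346 FPKM in the DU145 control and DU145 with siRNA 2. PSMB8 and PSMB9 lie in the major histocompatibility complex and each fills 8 rows of the tables. Of the 195 symbols listed 5 times or more, 179 had a mean under 1 FPKM, among them TAP1 and HLA-E, so these values are read only as listed at or near 0. PSMB11, the thymus subunit, had 0.314 FPKM in the DU145 control and 0.348 FPKM in 769-P with siRNA 2, which are the 2 libraries with low values at olfactory receptors. The others listed it at 0.

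As a share of the summed FPKM of PSMB10 and PSMB7, its constitutive counterpart, PSMB10 made up 13.9%, 10.4% and 13.2% in DU145 with the control, siRNA 1 and siRNA 2. In 769-P it made up 35.2%, 21.4% and 26.4%. The lines did not overlap, with a mean share of 12.5% ± 1.85 (SD, n = 3 libraries) in DU145 and 27.7% ± 7.02 (SD, n = 3 libraries) in 769-P. The 3 libraries of a line are its control and both siRNA libraries, so these SDs include any change with knockdown. In both lines the control had the highest share and siRNA 1 the lowest. The mean over the 3 catalytic pairs was 4.20% ± 0.638 (SD, n = 3 libraries) in DU145 and 9.24% ± 2.33 (SD, n = 3 libraries) in 769-P, but it rests on PSMB8 and PSMB9 as listed.

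The response to knockdown was described by the change of log2(FPKM + 1) from the control of the line, which understates the changes of low genes. In 769-P most proteasome transcripts were lower with both siRNAs, by small amounts. In DU145 the deposited values were lower with siRNA 1 and near the control with siRNA 2. Other scalings of the libraries, given below, put more of these transcripts below the control with both siRNAs in DU145. Sums given below as percent of the control use the deposited values. A gene was called when both siRNAs passed 1.5-fold in the same direction. By that criterion 3 of 43 genes were called lower in 769-P (PSMA3, PSMB10 and PSMD12), beside 3.73% of all 11865 genes tested, and 0 were called higher, beside 3.6%. In DU145 0 were called lower, beside 1.19% of all genes, and 0 higher, beside 4.72%. At 2-fold with both siRNAs 0 were called in either direction in either line, beside 0.666% higher and 0.329% lower of all genes in DU145 and 0.657% higher and 0.565% lower in 769-P.

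By direction alone, 32 of the 43 genes were below the control with both siRNAs in 769-P, beside 39.5% of all genes tested, and 6 were above it, beside 31.5%. In DU145 18 were below with both siRNAs, beside 22.2% of all genes, and 5 were above, beside 43.5%. The median of all genes with siRNA 2 in DU145 was 0.12 above the control on the log2 scale, and centring each library on that median put 30 of 43 below and 2 above in DU145, beside 32.9% of all genes below. Scaling each library to the same sum (TPM) gave 32 below and 2 above in DU145, beside 32.2% below. In 769-P the centred and TPM values put 29 and 30 genes below, beside 36.6% and 39.4% of all genes, and 6 above in each. Below the control with both siRNAs in both lines were 17 genes, beside 13.6% of all genes tested.

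In 769-P the median change of the 43 genes was -0.24 for siRNA 1 and -0.34 for siRNA 2, where the medians of all genes were 0.00 and -0.06. In DU145 it was -0.25 with siRNA 1 and -0.01 with siRNA 2, against 0.07 and 0.12 for all genes. After centring, the median of the mean changes in DU145 was -0.19. The 43 genes are mostly abundant, and among the 3647 genes that averaged 20 FPKM or more the 40 proteasome genes had a median mean change of -0.26 in 769-P against 0.02 for all genes of that level, and of -0.09 in DU145 against 0.12. In DU145 siRNA 1 was below siRNA 2 for 34 of the 43 genes, beside 55.1% of all genes tested, and in 769-P for 19, beside 40.4%. In bulk samples such as these, a smaller share of cells with a transcript and less of it in each cell cannot be told apart.

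**Figure D2:**
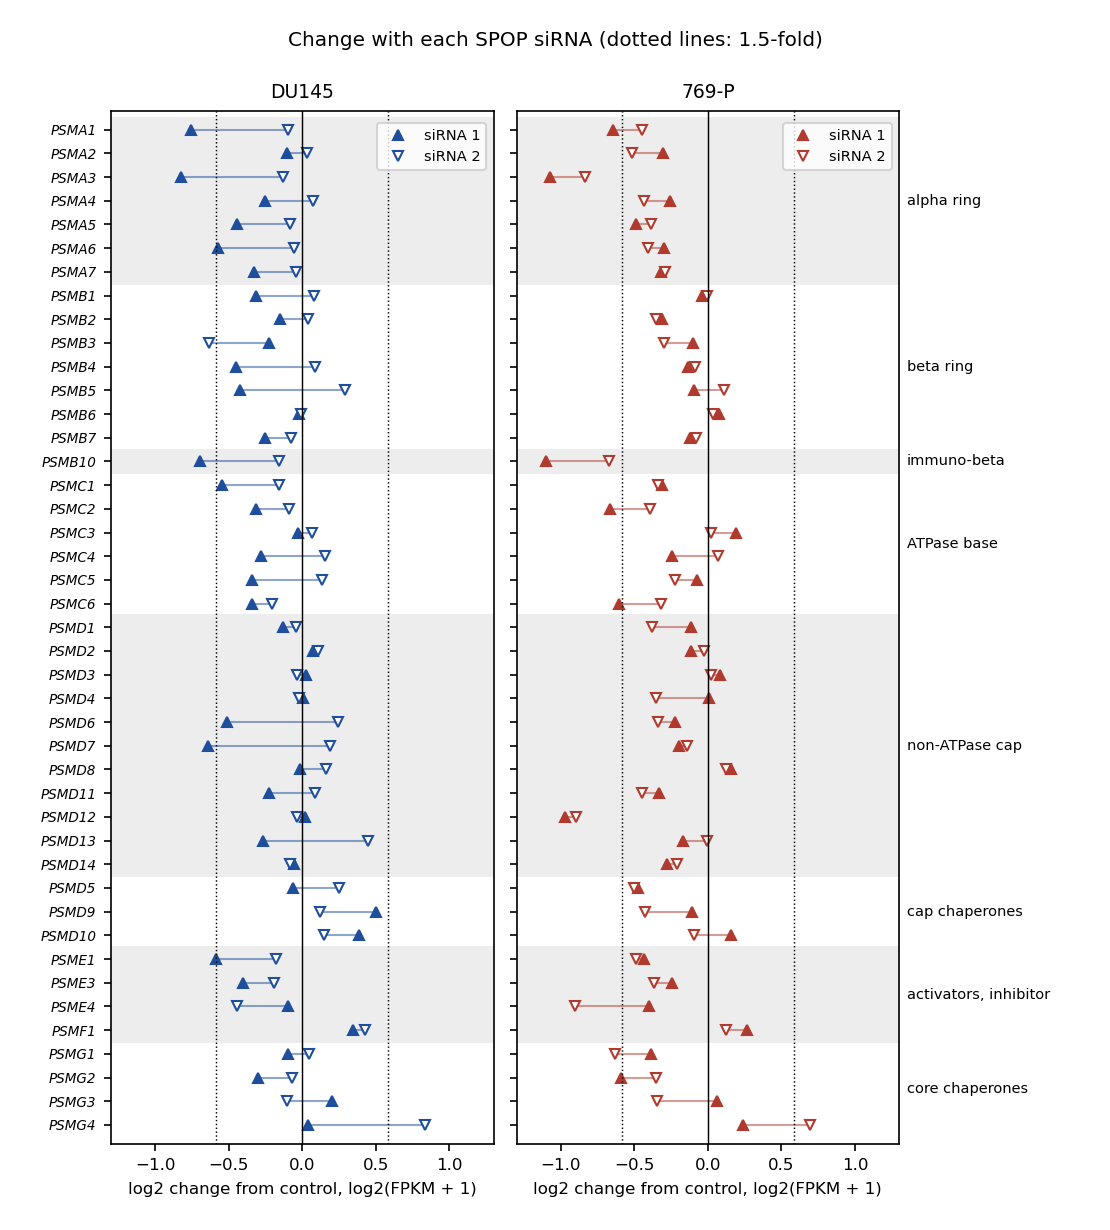
Change of each of the 43 compared proteasome genes from the control siRNA of its line, on the log2(FPKM + 1) scale, with 1 point for each SPOP siRNA and dotted lines at 1.5-fold. In the 769-P panel PSMA3, PSMB10 and PSMD12 lie past the lower line with both siRNAs, and in the DU145 panel no gene lies past either line with both.

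In the alpha ring all 7 compared genes were below the control with both siRNAs in 769-P, beside 39.5% of all genes. In DU145 5 of 7 were, beside 22.2%. With median-centring or TPM scaling 7 of 7 were below in DU145 too, beside 32.9% and 32.2% of all genes. Summed over the ring, the transcripts made up 75.0% and 74.9% of the control in 769-P, and 72.8% and 97.1% in DU145. The 769-P control had 79.2 FPKM of PSMA3, against 40.6 ± 4.92 (SD, n = 2 siRNAs) after knockdown, with 37.1 and 44.1 FPKM. In DU145 the control had 103 FPKM, against 57.4 with siRNA 1 and 93.7 with siRNA 2. Its log2 change was -1.07 and -0.83 in 769-P and -0.83 and -0.13 in DU145, and the DU145 library with siRNA 2 was the 1 near its control. PSMA1 passed 1.5-fold with siRNA 1 alone in both lines, with changes of -0.65 and -0.45 in 769-P and -0.76 and -0.10 in DU145. PSMA7 was at 80.0% and 81.8% of the control in 769-P and at 79.8% and 96.9% in DU145.

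Among the beta subunits in 769-P PSMB10 was lowest relative to its control, at 45.9% and 62.3% with siRNA 1 and siRNA 2, and in DU145 it was at 60.3% and 89.0%. In 769-P it had 39.7 ± 8.53 FPKM (SD, n = 2 siRNAs) after knockdown against 73.4 in the control. The constitutive beta ring as a sum was at 94.2% and 93.5% of the control in 769-P and at 82.0% and 97.5% in DU145, and 0 of its 7 genes were called in either line. PSMB3 passed 1.5-fold with siRNA 2 alone in DU145, where it had 228, 194 and 146 FPKM. The 3 constitutive catalytic subunits PSMB5, PSMB6 and PSMB7 had mean log2 changes of 0.01, 0.06 and -0.10 in 769-P and of -0.07, -0.01 and -0.16 in DU145.

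The cap subunit PSMD12, a structural part of the lid, differed most between the lines in its change. In 769-P the control had 47.7 FPKM, against 23.8 and 25.1 FPKM with the siRNAs, and 27.8, 28.1 and 27.1 FPKM in DU145. The 769-P control thus stood above the other 5 libraries, which lay within 23.8 to 28.1 FPKM, and the change in 769-P rests on that 1 control library. The log2 change was -0.97 and -0.90 in 769-P and 0.02 and -0.04 in DU145. The other 10 non-ATPase subunits of the cap were not called in either line, and the sum of all 11 was at 93.2% and 91.5% of the control in 769-P and at 96.5% and 106% in DU145. PSMD4, a ubiquitin receptor, had 209, 209.6 and 206 FPKM in DU145 and 107, 108 and 83.7 FPKM in 769-P. Of the 6 ATPases 4 were below the control with both siRNAs in 769-P, beside 39.5% of all genes, and 3 in DU145, beside 22.2%. The sum of the ATPases was at 88.7% and 88.4% of the control in 769-P and at 80.6% and 102% in DU145.

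PSMA3, PSMB10 and PSMD12 lie on chromosomes 14, 16 and 17 of GRCh37, PSMA3 from 58711561 to 58738730, PSMB10 from 67968409 to 67970767 and PSMD12 from 65334032 to 65362721. In the annotation PSMA3 overlaps other genes, among them its antisense gene PSMA3-AS1, and PSMB10 overlaps a gene on its own strand, and the strandedness of the reads is not given in the sources used here, so their values may include reads of those genes. PSMA3 and PSMD12 each have 1 annotated pseudogene of their name. The 250 bases before the start of each of these 3 genes are shown, since they are the genes called with both siRNAs, from RefSeq on GRCh38.p14, 5′ to 3′ on the strand of the gene, with capitals for the letters that matched a motif. PSMA3 is at chr14:58244593-58244842 on the plus strand, with CCAAT on each strand. PSMB10 is at chr16:67936851-67937100 on the minus strand, with a pair of GAAA separated by 2 bases. PSMD12 is at chr17:67366578-67366827 on the minus strand, with a match to TGACNNNGC and 1 to GGGCGG on the other strand.
PSMA3: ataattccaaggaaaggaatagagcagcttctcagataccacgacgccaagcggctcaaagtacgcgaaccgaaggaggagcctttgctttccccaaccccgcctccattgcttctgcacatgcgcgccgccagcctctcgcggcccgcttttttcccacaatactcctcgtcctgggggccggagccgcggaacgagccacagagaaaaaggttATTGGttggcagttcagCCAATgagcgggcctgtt
PSMB10: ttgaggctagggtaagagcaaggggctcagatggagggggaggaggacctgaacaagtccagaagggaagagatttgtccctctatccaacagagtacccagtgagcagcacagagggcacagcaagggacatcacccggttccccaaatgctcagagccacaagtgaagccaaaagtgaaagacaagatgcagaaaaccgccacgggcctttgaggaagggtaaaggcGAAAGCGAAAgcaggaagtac
PSMD12: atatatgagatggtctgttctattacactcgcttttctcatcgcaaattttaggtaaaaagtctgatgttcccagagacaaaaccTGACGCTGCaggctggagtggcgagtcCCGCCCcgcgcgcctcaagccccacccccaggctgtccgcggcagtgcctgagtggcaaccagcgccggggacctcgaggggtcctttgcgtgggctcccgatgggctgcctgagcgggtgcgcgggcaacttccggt

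Motifs were searched on both strands of these 250 bases, without regard to overlap, in the promoters of 41 of the 47 genes that the RefSeq table held. TGACNNNGC, the core of the antioxidant response element that NRF1 and NRF2 bind, was present in 10 (24.4%) and in 3013 of all 27305 promoters. A pair of GAAA separated by any 2 bases, the core of the interferon-stimulated response element, was present in PSMA4, PSMB4, PSMB10 and PSMG4 (9.76%) and in 3.07% of all promoters. CCAAT, bound by NF-Y, was present in 18 (43.9%) and in 33.0% of all, and GGGCGG, the GC box bound by SP1, in 25 (61.0%) and in 42.3% of all. The 9 compared genes with TGACNNNGC had a median mean change of -0.47 in 769-P and the 28 without it of -0.26. In 769-P 1 of the 9 (PSMD12) and 2 of the 28 were called lower, beside 3.73% of all genes. In DU145 these medians were -0.02 and -0.09. For the pair of GAAA and for CCAAT the 769-P medians ran the other way, at -0.23 with and -0.30 without the pair and at -0.22 with and -0.34 without CCAAT, and for GGGCGG they were -0.33 with and -0.28 without. A match describes letters in this window, and binding was not measured.

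Of the activators, PSME1, an interferon-inducible subunit of the PA28 ring, had 58.0, 38.4 and 51.1 FPKM in DU145 and 108, 79.4 and 76.3 FPKM in 769-P. The merged row that holds PSME2, its ring partner, had 56.0, 23.4 and 57.1 FPKM in DU145 and 83.1, 46.3 and 53.6 FPKM in 769-P. This row was below the control at 1.5-fold with both siRNAs in 769-P, and its microRNA part cannot be told apart from PSME2. PSME3, the nuclear PA28 subunit, had 64.4, 48.5 and 56.3 FPKM in DU145 and 74.8, 63.1 and 57.9 FPKM in 769-P. PSME4, the PA200 activator, was the lowest gene compared, with 11.4, 10.6 and 8.14 FPKM in DU145 and 9.60, 7.04 and 4.68 FPKM in 769-P. The merged row with PSME2 was at 102% of the control with siRNA 2 in DU145. PSME1, PSME3 and PSME4 were below the control with all 4 siRNA libraries, beside 13.6% of all genes tested. PSMF1, the PI31 regulator first described as an inhibitor of the core, was above it with all 4, with 40.0, 51.0 and 54.1 FPKM in DU145 and 29.9, 36.2 and 32.7 FPKM in 769-P. Its log2 changes of 0.34 and 0.43 in DU145 and 0.27 and 0.13 in 769-P stayed positive under both other scalings and did not pass 1.5-fold.

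The core assembly chaperones PSMG1 to PSMG4 work in pairs, PSMG1 with PSMG2 and PSMG3 with PSMG4, to build the alpha ring. PSMG1 had 36.4, 34.1 and 37.7 FPKM in DU145 and 41.6, 31.6 and 26.5 FPKM in 769-P. PSMG2 had 49.5, 40.0 and 47.1 FPKM in DU145 and 59.5, 39.1 and 46.5 FPKM in 769-P. This pair was below its control with both siRNAs in 769-P, each passing 1.5-fold with 1 siRNA, PSMG2 with siRNA 1 and PSMG1 with siRNA 2. PSMG3 had 57.7, 66.4 and 53.6 FPKM in DU145 and 44.6, 46.5 and 34.8 FPKM in 769-P. PSMG4 had 27.5, 28.3 and 49.7 FPKM in DU145 and 23.2, 27.5 and 38.2 FPKM in 769-P. In both lines PSMG4 was past 1.5-fold higher with siRNA 2 alone, at 181% and 165% of the control, and with siRNA 1 its change in DU145 was 0.04 and turned negative under median-centring. Of the cap chaperones PSMD9 had 26.2, 37.6 and 28.6 FPKM in DU145 and 21.4, 19.8 and 15.7 FPKM in 769-P, and PSMD5, with the lowest mean of them over the 6 libraries, had 15.7, 14.9 and 18.9 FPKM in DU145 and 17.5, 12.3 and 12.04 FPKM in 769-P. PSMD10, also known as gankyrin, had 14.1, 18.8 and 15.8 FPKM in DU145, where its mean was below that of PSMD5, and 20.98, 23.5 and 19.6 FPKM in 769-P. PSMD9 and PSMD10 were above the DU145 control with both siRNAs, PSMD10 by 0.39 and 0.15 on the log2 scale, and TPM scaling left neither above with both.

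Single siRNAs passed 1.5-fold for more genes. In 769-P siRNA 1 passed it lower for 7 of 43, beside 9.84% of all genes, and siRNA 2 for 5, beside 8.37%. In DU145 siRNA 1 passed it lower for 4 (PSMA1, PSMA3, PSMB10 and PSMD7), beside 7.42% of all genes, and siRNA 2 for PSMB3 alone, beside 3.73%. PSMG4 was the 1 gene past it higher, with siRNA 2, in both lines, beside 6.15% of all genes in 769-P and 11.3% in DU145. The sum over all members was at 87.0% and 86.1% of the control in 769-P and at 84.3% and 100.5% in DU145.

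All 6 libraries were also fitted in 1 limma model with 4 groups, with 2 residual degrees of freedom and Benjamini-Hochberg adjustment over all 11865 genes. For knockdown in DU145 limma called 0 of the 43 genes at an adjusted p of 0.05, beside 0.135% of all genes, and 0 had an unadjusted p under 0.05, beside 6.27%. For knockdown in 769-P it called 0, beside 0.101% of all genes, and 3 had an unadjusted p under 0.05, beside 6.97%. These were PSMD12 (log2 change -0.94, standard error 0.21, adjusted p = 0.643), PSMA3 (-0.95, standard error 0.34, adjusted p = 0.693) and PSMB10 (-0.89, standard error 0.33, adjusted p = 0.708). For the difference in knockdown between the lines limma called 0, beside 0.169% of all genes, and 1 had an unadjusted p under 0.05, beside 2.74%, which was PSMD12, with 0.93 (DU145 minus 769-P, standard error 0.29, adjusted p = 0.999). SPOP had an adjusted p of 0.134 in DU145 and 0.0948 in 769-P in the same limma fit.

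The levels of 12 of the 43 genes differed between the lines in this fit, beside 42.1% of all genes tested, 7 higher in DU145, beside 26.8%, and 5 lower, beside 15.3%. At an unadjusted p under 0.05 there were 14, beside 51.3%. PSMA6, an alpha ring subunit, had the largest difference. It had 323, 217 and 311 FPKM in DU145 and 85.8, 69.6 and 64.6 FPKM in 769-P, so that every DU145 library was above every 769-P library. Its means were 284 ± 58.1 FPKM in DU145 and 73.3 ± 11.1 FPKM in 769-P (SD, n = 3 libraries each), a ratio of 3.87, and limma gave a log2 difference of 1.92 with an adjusted p of 0.0014. Here and below, an SD over 3 libraries takes in the control and both siRNA libraries of a line, and with them any change with knockdown. PSMA6 overlaps 2 genes on its own strand and has 4 annotated pseudogenes, whose part in its value was not tested.

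PSMD4 was 2.09 times as high in DU145, with 208 ± 2.05 against 99.6 ± 13.8 FPKM (SD, n = 3 libraries each, as for the genes that follow, adjusted p = 0.0059 from limma). PSMB4 was 1.88 times as high, with 412 ± 77.1 against 219 ± 10.3 FPKM (adjusted p = 0.0159 from limma). These 2 genes lie close to each other on chromosome 1 of GRCh37, PSMD4 from 151227185 to 151239955 and PSMB4 from 151372036 to 151374413. In the other direction PSMB10 was 2.46 times as high in 769-P, with 51.0 ± 20.4 against 20.7 ± 5.11 FPKM (adjusted p = 0.0087 from limma). PSMA5 was 1.96 times as high in 769-P, with 28.3 ± 5.42 against 14.5 ± 2.42 FPKM (adjusted p = 0.0104 from limma). PSME1 was 1.78 times as high in 769-P, with 87.7 ± 17.2 against 49.2 ± 9.98 FPKM (adjusted p = 0.0142 from limma). The other genes past the threshold were PSMC4, PSMC6, PSMF1 and PSMB6, higher in DU145, and PSMB2 and PSMD14, a deubiquitinase of the cap, lower. Leaving out siRNA 1 or siRNA 2 of 769-P leaves 1 knockdown library in that line, and fewer members and fewer of all genes passed. The log2 differences were then 1.95 and 1.89 for PSMA6, 1.13 and 0.95 for PSMD4, and -1.40 and -1.18 for PSMB10.

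By the spread of the libraries alone, 11 genes had every library of one line above every library of the other with means at least 1.5-fold apart, 6 higher in DU145, beside 28.2% of all genes, and 5 lower, beside 15.1%. At any size 10 genes were apart with DU145 higher, beside 35.1% of all genes, and 7 with DU145 lower, beside 21.2%. For the other 26 of the 43 the libraries of the lines overlapped. Overlapping genes included PSMB5, with 95.5 ± 23.4 FPKM in DU145 and 75.1 ± 5.28 FPKM in 769-P (SD, n = 3 libraries each), and PSMA7, with 254 ± 29.97 and 295 ± 37.4 FPKM. The median line difference of the 43 genes was 0.08 (log2 of DU145 over 769-P), and that of all genes tested was 0.16.

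**Figure D3:**
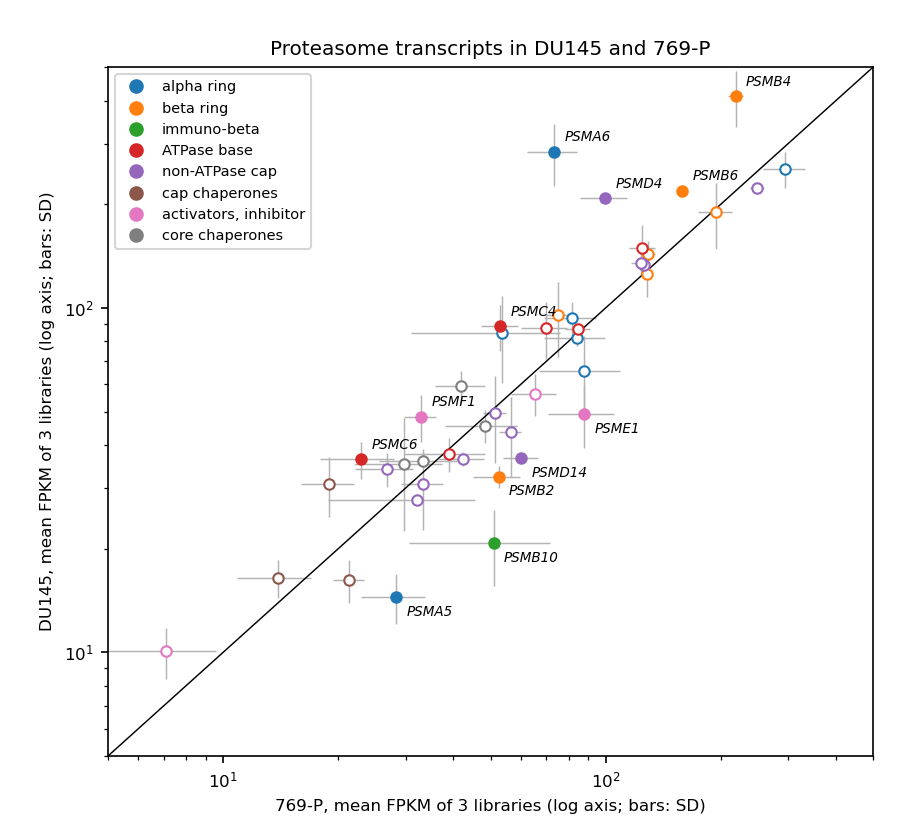
Mean FPKM of each compared proteasome gene in 769-P (horizontal log axis) and DU145 (vertical log axis), with bars for the SD over the 3 libraries of a line and the diagonal marking equal levels. Filled points are the 12 genes past an adjusted p of 0.05 in limma, of which PSMA6 lies farthest from the diagonal with 284 FPKM in DU145 and 73.3 FPKM in 769-P.

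Proteasome partners whose symbols lack PSM were examined as a list of 23, of which 20 were found. At 1.5-fold with both siRNAs 0 of the 20 were called in either line. In 769-P 12 were below the control with both siRNAs, beside 39.5% of all genes tested, and 4 above, beside 31.5%. In DU145 5 were below, beside 22.2%, and 7 above, beside 43.5%. Of 6 ubiquitin and ubiquitin-activating genes 4 were found and 0 were called in either line.

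Of 8 regulators of proteasome transcription 6 were found and 0 were called in either line. NFE2L1 and NFE2L2 are singled out here after their values were seen. NFE2L1 had 45.8, 72.1 and 63.3 FPKM in DU145 and 38.6, 65.6 and 57.4 FPKM in 769-P, so it was above its control in all 4 siRNA libraries. Its log2 changes were 0.64 and 0.46 in DU145 and 0.75 and 0.56 in 769-P, and limma gave it an adjusted p of 0.693 in 769-P. NFE2L2, which encodes NRF2, had 30.5, 12.98 and 25.4 FPKM in DU145 and 32.4, 19.3 and 22.3 FPKM in 769-P, below its control in all 4. In these 4 libraries the median change of the 43 proteasome genes lay between -0.34 and -0.01, and protein was not measured.

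Of 18 genes of class I antigen processing, the pathway that uses peptides from the proteasome, 17 were found and 14 compared. In 769-P 3 were called lower, B2M, HLA-B and IRF1, beside 3.73% of all genes, 11 were below the control with both siRNAs, beside 39.5%, and 1 was above, CALR, beside 31.5%. In DU145 1 was called lower, IRF1, beside 1.19% of all genes, 5 were below with both, beside 22.2%, and 3 were above, CALR, PDIA3 and TAPBPL, beside 43.5%. IRF1, an interferon-induced transcription factor, had 12.4, 7.11 and 6.67 FPKM in DU145 and 15.8, 6.85 and 6.33 FPKM in 769-P. B2M, the light chain of class I molecules, had 403, 329 and 311 FPKM in DU145 and 601, 318 and 265 FPKM in 769-P. HLA-B, listed in 6 rows, had 52.6, 55.1 and 45.4 FPKM in DU145 and 224, 86.7 and 76.7 FPKM in 769-P. In 769-P B2M was at 52.9% and 44.1% of its control and PSMB10 at 45.9% and 62.3%, while in DU145 B2M was at 81.6% and 77.3%. For these genes limma gave an adjusted p of 0.632 (B2M), 0.392 (HLA-B) and 0.632 (IRF1) in 769-P. Of the leukocyte markers CD74, a class II chaperone, was also lower in 769-P, with 2.24, 0.174 and 1.13 FPKM, and PTPRC, CD3E and CD14 were at most 0.291 FPKM there. The part of CD74 in these results was not tested.

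**Figure D4:**
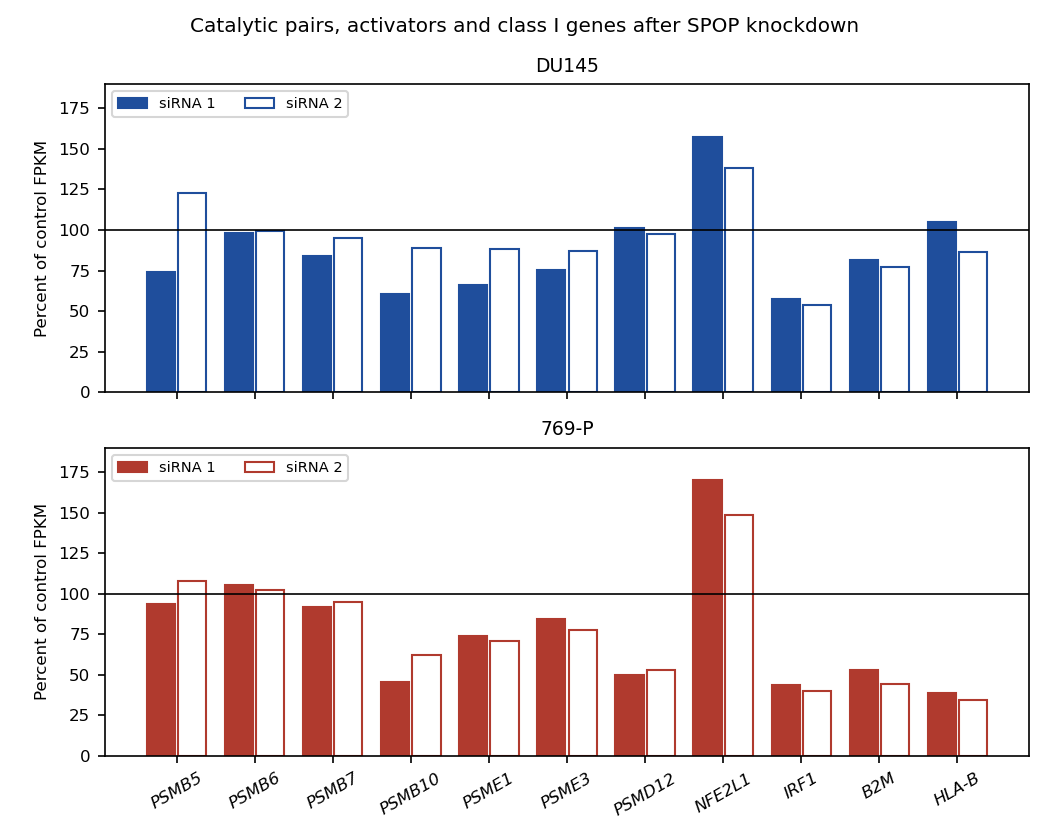
Level with each SPOP siRNA as percent of the control of the line, in DU145 and 769-P, for catalytic, activator and cap genes of the proteasome beside NFE2L1, IRF1, B2M and HLA-B. Bars start at 0, filled for siRNA 1 and open for siRNA 2, and in 769-P PSMB10 (45.9% and 62.3%), PSMD12 (49.9% and 52.7%), B2M (52.9% and 44.1%) and HLA-B (38.7% and 34.3%) are low with both, while PSMB6 is at 106% and 102%.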

How the data were processed

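RNA-Seq was performed on 6 libraries of polyadenylated RNA. Alignment by the authors used TopHat2 on hg19, with at most 2 mismatches in 100-bp reads of both fragment ends, and the deposited values are FPKM from Cufflinks, 1 per gene and library. Per the labels the reads also passed FastQC and cutadapt. The annotation, tool versions and strandedness are not given in the sources used here. The study's methods state 2 biological replicates per sample, whereas the labels give 1 library per siRNA and control, and kit and RNA amount also differ between them.

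Here rows of 1 symbol were summed (26006 rows, 24551 symbols), a pseudocount of 1 was added before log2, and the 11865 genes that averaged 1 FPKM or more were compared by fold (1.5 with both siRNAs) and with limma 3.58.1 in R 4.3.3 (4 groups, trend, Benjamini-Hochberg), after tests on simulated data. Python 3.11.15 and pandas 2.3.3 were used for tables. Positions come from GENCODE on GRCh37 and promoters from RefSeq on GRCh38.p14. FPKM keeps no count, so depth and counting error are unknown. The genes and lists were chosen with earlier results of these data known. Values are given for the catalytic, activator and assembly genes, all called genes, the 5 largest line differences, the extremes of each subcomplex and the genes beside the filter. Alternatives were other pseudocounts, scalings, filters, folds, left-out libraries, quantile normalization, no trend, no interaction and a replicate block. A minimum of 20 FPKM was chosen after seeing the data. The results for 2 marker genes are not reported here.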

Additional observations from a re-analysis of the deposited data

Results flagged for a closer look

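For 3 of the 43 compared proteasome genes both siRNAs moved one way in DU145 and the opposite way in 769-P, by the deposited values. The share of all genes that did so was not computed, so the count is no result about these genes. The difference of the mean log2 changes (DU145 minus 769-P) was -0.072 for PSMB6 (standard error 0.27), 0.16 for PSMD2 (0.27) and 0.58 for PSMD9 (0.39), and limma gave each an adjusted p of 0.999, so the differences did not pass the test. PSMB6 changed by -0.02 and -0.01 in DU145 and by 0.08 and 0.03 in 769-P. PSMD2 changed by 0.07 and 0.11 in DU145 and by -0.12 and -0.02 in 769-P. Median-centring turned its DU145 changes negative and split its 769-P changes, at -0.12 and 0.03. PSMD9 changed by 0.50 and 0.12 in DU145 and by -0.11 and -0.43 in 769-P, and centring put its DU145 change with siRNA 2 at -0.004. No group held 4 samples, so libraries were not tested for standing apart.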

How the results depend on the processing

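At 1.5-fold, 3 members were called in 769-P and 0 at 2-fold, and taking 1 siRNA alone gave 6 to 7. In DU145 1 siRNA alone gave 2 to 4 members where both gave 0. The median change in 769-P ranged from -0.34 to -0.24 with 1 siRNA. The 11 members apart between the lines became 3 at 2-fold. The mean share of the 3 catalytic pairs in 769-P was 12.2% when their FPKM were summed. The members past limma between the lines were 2 to 10 with 1 siRNA library left out, and 8 with no filter on low values, 10 with no trend and 15 with no interaction term. PSMA6 and PSMD4 passed in 11 of 11 settings, PSMB6 in 5, PSMC6 and PSMF1 in 6, PSMC4 in 7, PSMB4 in 8 and the other 5 in 9. Over all genes the limma calls ranged over the settings from 0 to 678 in DU145, 0 to 14 in 769-P, 0 to 326 for the difference and 2763 to 5977 between the lines. For knockdown 0 members passed limma in either line or for the difference, in every setting tried. Same-numbered siRNAs share a number and no stated culture, and with the number as a replicate block 14 members passed between the lines and 0 for knockdown, and the calls over all genes were 18 in DU145, 14 in 769-P, 8 for the difference and 5977 between the lines, against 16, 12, 20 and 4994. The difference between siRNA 2 and siRNA 1 correlated at 0.27 between the lines over 11865 genes. FPKM without counts leaves the error of a single library unknown, and with 1 control a line, a control that stands apart cannot be told apart from knockdown.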
